A study of Homo sapiens with 36 samples.

Results

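The poly(ADP-ribose) polymerase (PARP) family and PARG were followed in the RNA-seq of A2780 cells. The 10 genes PARP1, PARP2, PARP3, PARP4, PARP9, PARP10, PARP12, PARP14, TNKS and PARG were taken as a named list, with no threshold on their values, and matched by symbol through their Ensembl identifiers among 57820 gene rows. All 10 were found in the count table.

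A2780 is an established human ovarian cancer cell line, and RNA-seq covered 12 conditions with 3 libraries each, 36 libraries in all. The platinum-sensitive parental cells are called wt, and the resistant cells derived from them by long exposure to cisplatin are called cis. The cells called cis SSP grew out of cis cells kept without serine and glycine. Their labels describe them as cis cells that regained activity of the serine synthesis pathway (SSP). Each kind of cell received either complete medium or one lacking serine and glycine (-SG), and either no drug or carboplatin (carbo), a platinum compound that crosslinks DNA. Untreated wt, cis and cis SSP cells in complete medium carry no drug, so that cis and cis SSP cells differ from wt cells by their history and not by drug in the dish. The labels write the carboplatin dose as 6 M, whereas other assays of the same study used micromolar doses, and they give no day of sampling. Each of the 3 kinds of cells is 1 line, and the study's legends describe its libraries as technical replicates, so that the p-values measure the spread between libraries and not between independent cultures.

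ADP-ribosylation moves ADP-ribose from NAD+ onto proteins or nucleic acids, either as a single unit or as a long chain. PARP1 and PARP2 bind broken DNA and build chains that bring in repair proteins, PARP3 also acts at DNA breaks, and PARG degrades the chains. PARP9, PARP10, PARP12 and PARP14 are known as interferon-inducible members, TNKS (tankyrase) builds chains on telomere and Wnt pathway proteins, and PARP4 is a component of the vault particle.

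The promoters of the members were set beside each other because PARP9 and PARP14, which are neighbours in the genome, were both lower in cis than in wt cells. Of the 9 members tested there, 7 were lower, among them also PARP2, PARP4, PARP10, TNKS and PARG. Of all genes 39.1% were called lower in this comparison. PARP1 was not called and PARP3 was higher. RefSeq (GRCh38.p14) gave a promoter window of 250 bases before to 50 bases after the start for 7 of the 10 members, without PARP4, PARP10 and TNKS. Each sequence below is read 5′ to 3′ along the gene's own strand, and capitals mark a match on either strand to 1 of 4 motifs: the core of the interferon-stimulated response element (ISRE, GAAANNGAA), the gamma-activated site (GAS, TTCNNNGAA) and both forms of the E2F site (TTTGGCGC and TTTCCCGC). Of 35116 promoter windows of this length, 8.11% held the ISRE core, 7.66% the GAS letters and 2.27% either E2F form. PARP9 (chr3:122564251-122564550, minus strand), PARP14 (chr3:122680589-122680888, plus strand) and PARP12 (chr7:140062902-140063201, minus strand) held the ISRE core, and PARP2 (chr14:20343385-20343684, plus strand) held the GAS letters. PARP1 (chr1:226408044-226408343, minus strand) and PARP3 (chr3:51942113-51942412, plus strand) are shown as members without a match.
PARP9: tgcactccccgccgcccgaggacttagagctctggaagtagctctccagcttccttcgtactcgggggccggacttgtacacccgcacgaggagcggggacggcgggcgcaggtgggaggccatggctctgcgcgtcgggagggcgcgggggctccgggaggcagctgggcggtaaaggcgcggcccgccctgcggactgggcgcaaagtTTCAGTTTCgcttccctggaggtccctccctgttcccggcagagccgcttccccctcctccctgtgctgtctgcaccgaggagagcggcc
PARP14: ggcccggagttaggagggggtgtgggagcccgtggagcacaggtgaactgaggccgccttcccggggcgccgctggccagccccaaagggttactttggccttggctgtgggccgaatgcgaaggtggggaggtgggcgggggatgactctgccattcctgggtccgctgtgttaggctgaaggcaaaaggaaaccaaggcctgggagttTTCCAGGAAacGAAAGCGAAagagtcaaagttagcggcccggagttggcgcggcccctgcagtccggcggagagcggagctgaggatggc
PARP12: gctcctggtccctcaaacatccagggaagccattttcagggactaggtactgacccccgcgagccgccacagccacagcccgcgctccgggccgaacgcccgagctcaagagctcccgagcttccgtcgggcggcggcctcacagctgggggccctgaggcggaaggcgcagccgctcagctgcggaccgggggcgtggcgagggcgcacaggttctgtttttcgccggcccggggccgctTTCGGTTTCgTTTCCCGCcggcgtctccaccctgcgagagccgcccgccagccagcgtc
PARP2: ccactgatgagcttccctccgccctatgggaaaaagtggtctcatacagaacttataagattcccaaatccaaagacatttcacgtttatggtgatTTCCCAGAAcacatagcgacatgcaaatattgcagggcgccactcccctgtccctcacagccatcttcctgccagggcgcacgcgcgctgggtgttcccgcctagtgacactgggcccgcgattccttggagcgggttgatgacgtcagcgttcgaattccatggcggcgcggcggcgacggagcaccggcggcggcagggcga
PARP1: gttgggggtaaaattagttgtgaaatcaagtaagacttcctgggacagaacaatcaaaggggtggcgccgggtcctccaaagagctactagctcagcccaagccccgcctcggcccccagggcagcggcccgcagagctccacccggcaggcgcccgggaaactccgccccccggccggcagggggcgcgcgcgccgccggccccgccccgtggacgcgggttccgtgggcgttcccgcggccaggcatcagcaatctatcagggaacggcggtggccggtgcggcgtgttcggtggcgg
PARP3: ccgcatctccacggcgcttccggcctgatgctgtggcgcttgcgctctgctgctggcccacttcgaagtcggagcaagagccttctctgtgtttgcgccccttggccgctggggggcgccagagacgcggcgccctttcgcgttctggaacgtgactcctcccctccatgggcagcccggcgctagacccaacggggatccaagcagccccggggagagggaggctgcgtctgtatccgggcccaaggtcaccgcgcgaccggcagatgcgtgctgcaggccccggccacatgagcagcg

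In PARP14 the ISRE core began 29 bases and the GAS letters 40 bases before the start, without overlap. In PARP12 the ISRE core began 9 bases before the start and an E2F match followed it. PARG, which was also lower in cis cells, held none of the 4 motifs in its window. The PARP9 window shown is 1 of 2 in the table. Its start lies 38 bases from that of DTX3L, the ubiquitin ligase partner of PARP9, which is read in the opposite direction, and the windows of both genes share 137 bases. Both windows hold 1 and the same ISRE core, at chr3:122564332-122564340. A match is a description of these letters and no evidence that a factor binds there.

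Total counts on genes were 13074937 to 20441582 per library. Levels are given as CPM, the counts of a gene per 1e6 counts of its library, scaled by edgeR's TMM factors, and the conditions are named in the order wt, cis, cis SSP. Libraries 25 (cis SSP) and 32 (cis SSP -SG) stood apart by transcript length. Their long genes (at least 5000 bases) against short genes (under 1500 bases) were lower than in the mean of their own condition by a median log2 difference of -1.33 and -1.32, against -0.07 to 0.25 in the 29 libraries outside both conditions and other than library 11. Library 11 (the second library of wt -SG carbo) was at -0.44, and libraries 23 and 24 (cis -SG carbo) had up to 17.9% of reads on no feature, against at most 9.31% elsewhere. All 12 cis SSP libraries carry index sequences that wt libraries carry too. The part of these features in the results was not tested, and several results that rest on these libraries are given with and without them. The markers of ovarian and Müllerian cells PAX8 and MUC16 and the epithelial marker CDH1 were under 1 CPM in every library, although the label is ovarian cancer cells. The summed epithelial markers were at 1.66 to 47.3 CPM, the ovarian and Müllerian markers at 0 to 1.42, the leukocyte markers at 0 to 0.202, the endothelial markers (2 of 3 matched) at 0 to 0.411 and the fibroblast markers at 2.09 to 991 CPM.

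Per kilobase of the longest annotated transcript, wt cells had the highest level for PARP1, at 99.4 ± 1.55 CPM per kb (SD, n = 3 libraries). PARP4 followed at 37.2, PARP2 at 29.6, PARP14 at 22.6, PARP9 at 10.3, TNKS at 9.89, PARG at 8.499, PARP3 at 4.07 and PARP10 at 1.56 CPM per kb, and the libraries of neighbours in this order did not overlap. With the length of all exons in place of the longest transcript, PARP1 was at 33.5 and PARP4 also at 33.5 CPM per kb, and PARP14 came before PARP2. In cis cells the order of levels per kb (longest transcript) was PARP1, PARP2, PARP4, PARP14, TNKS, PARG, PARP3, PARP9 and PARP10, with PARP9 behind TNKS, PARG and PARP3, all of which it exceeded in wt cells. In wt carbo cells PARP1, PARP4 and PARP14 came within 47.3 to 39.0 CPM per kb, and PARP3 and PARP9 overlapped. PARP12 was hardly detected. It had 19 counts in all 36 libraries, 25 of them at 0, and no library had more than 5 counts. Of the 19 counts, 8 fell in cis -SG and 6 in cis -SG carbo, whose 6 libraries each had at least 1. A count of 0 allows up to 0.147 to 0.229 CPM (3 counts of a library's total, for counting error only). PARP12 passed the filter on low counts in no comparison, so 9 members were tested.

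**Figure D1:**
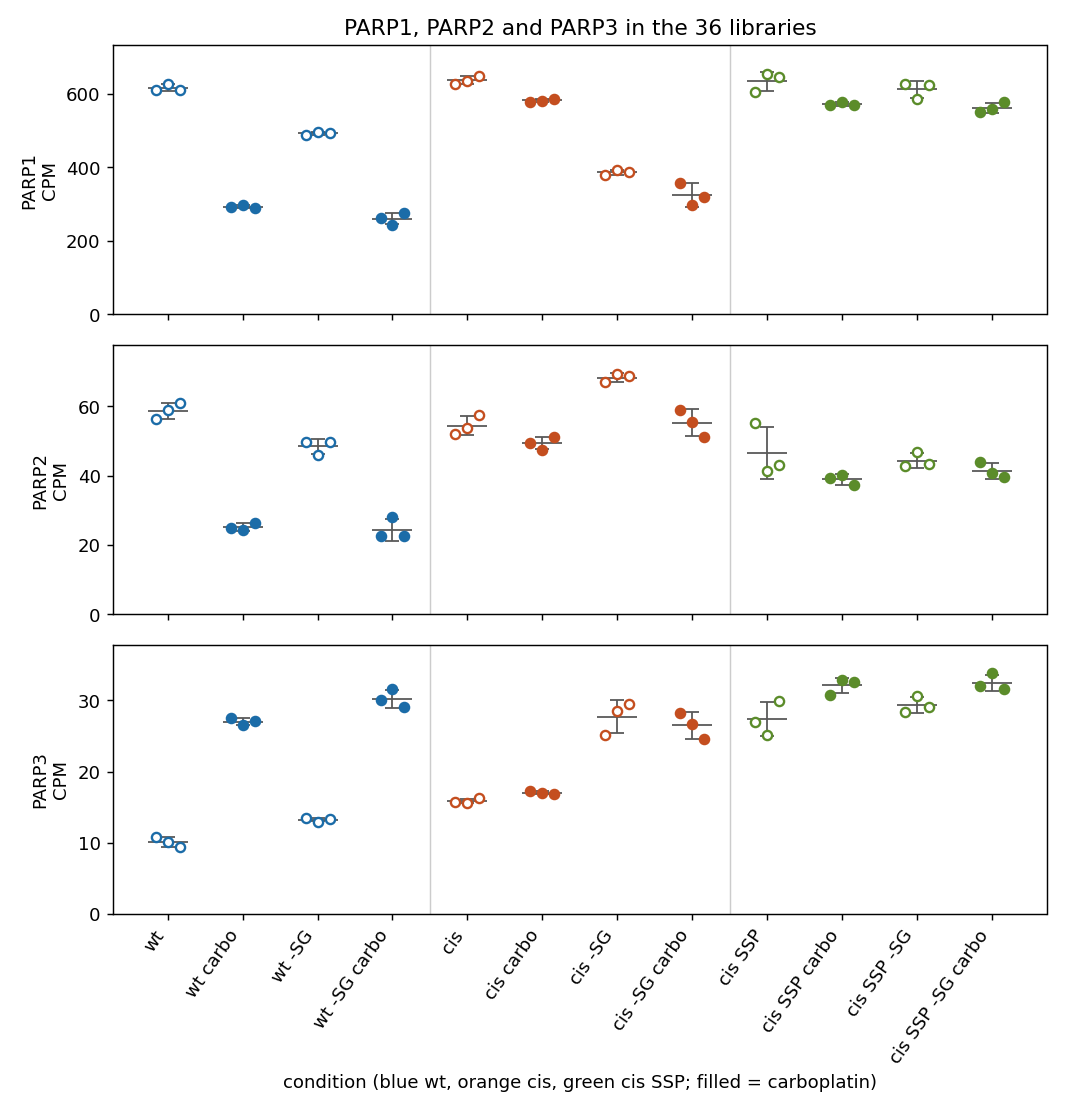
Levels of PARP1, PARP2 and PARP3 (CPM, linear axes from 0) in the 12 conditions. Points are libraries, bars are the mean and SD of 3 libraries, and filled points are carboplatin-treated; PARP1 sits at 290 to 297 CPM in wt carbo cells and at 579 to 587 in cis carbo cells.

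PARP1 (ENSG00000143799, chr1:226547911-226595855 in GRCh37, minus strand), the main sensor of DNA breaks in the family, was level between untreated wt and cis cells and fell with carboplatin mainly in wt cells. It was at 611, 628 and 612 CPM in wt cells and at 627, 635 and 649 CPM in cis cells, and these libraries overlapped. The log2 difference was 0.01 (standard error 0.0229, edgeR adjusted p = 0.597). In wt carbo cells PARP1 was at 293, 297 and 290 CPM, below every untreated library and 2.08-fold lower than in wt cells (log2 fold change -1.06, standard error 0.0196, edgeR adjusted p = 8.66e-269). In cis carbo cells it was at 579, 582 and 587 CPM, again below every untreated library but by 1.07-fold (log2 -0.10, standard error 0.025, edgeR adjusted p = 0.00432). Both responses were set against each other by an interaction term, which gave a difference of 0.96 on the log2 scale (standard error 0.0315, edgeR adjusted p = 1.6e-34).

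Without serine and glycine, PARP1 fell in both wt and cis cells. It was at 488, 496 and 494 CPM in wt -SG cells (log2 -0.31, edgeR adjusted p = 1.94e-10) and at 381, 393 and 387 CPM in cis -SG cells (log2 -0.69, edgeR adjusted p = 6.62e-27). The fall was larger in cis cells, by 0.36 on the log2 scale (interaction -0.36, standard error 0.0329, edgeR adjusted p = 5.31e-12). Carboplatin on top of deprivation brought PARP1 to 263, 245 and 275 CPM in wt cells, the lowest of all conditions. In cis cells it brought PARP1 to 359, 297 and 320 CPM (log2 -0.16, edgeR adjusted p = 0.00396). Without libraries 23 and 24, which leaves 1 library of cis -SG carbo, the log2 fold change was -0.09. In cis SSP cells PARP1 was at 605, 654 and 646 CPM in complete medium and at 627, 587 and 624 CPM without serine and glycine, and these libraries overlapped. Between cis SSP -SG and cis -SG cells it was 1.57-fold higher in the former (log2 0.65, standard error 0.0918, edgeR adjusted p = 0.00216). Without library 32 this log2 fold change was 0.69.

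PARP2 (ENSG00000129484, chr14:20811774-20826063, plus strand), the closest relative of PARP1 in DNA repair, fell with carboplatin in wt cells as PARP1 did, and rose without serine and glycine in cis cells, where PARP1 fell. It was at 56.3, 58.9 and 60.8 CPM in wt cells and at 24.9, 24.3 and 26.3 CPM in wt carbo cells, with no overlap (log2 -1.21, standard error 0.0486, edgeR adjusted p = 2.45e-100). In cis cells it was at 52.0, 53.8 and 57.5 CPM, and with carboplatin at 49.4, 47.5 and 51.0 CPM, a change that was not called. The interaction of cell line and carboplatin was 1.10 (standard error 0.0684, edgeR adjusted p = 2.94e-21). Deprivation lowered PARP2 in wt cells, to 49.7, 46.0 and 49.6 CPM (log2 -0.27, edgeR adjusted p = 6.02e-05), and raised it in cis cells, to 66.9, 69.4 and 68.6 CPM (log2 0.35, edgeR adjusted p = 1.1e-09). The 2 responses thus had opposite signs, and they differed by 0.63 on the log2 scale (edgeR adjusted p = 6.17e-11). In cis SSP -SG cells PARP2 was lower than in cis -SG cells, at 42.7, 46.7 and 43.4 CPM (log2 -0.63, standard error 0.088, edgeR adjusted p = 0.00208). Without library 32 this log2 fold change was -0.67.

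PARP3 (ENSG00000041880, chr3:51976361-51982883, plus strand), which acts at DNA double-strand breaks, rose with carboplatin in wt cells, where PARP1 and PARP2 fell. It was at 10.8, 10.0 and 9.34 CPM in wt cells, its lowest level, and at 27.5, 26.5 and 27.1 CPM in wt carbo cells, 2.72-fold higher (log2 1.45, standard error 0.0722, edgeR adjusted p = 7.56e-72). In cis cells it started higher, at 15.8, 15.6 and 16.2 CPM (log2 0.63 against wt, edgeR adjusted p = 4.55e-09), and was at 17.2, 16.96 and 16.9 CPM with carboplatin, which was not called. The interaction was -1.31 (standard error 0.102, edgeR adjusted p = 3.47e-17). Deprivation raised PARP3 to 13.4, 12.9 and 13.3 CPM in wt cells (log2 0.41, edgeR adjusted p = 0.00035) and to 25.1, 28.5 and 29.6 CPM in cis cells (log2 0.83, edgeR adjusted p = 1.11e-14), and the response of cis cells was the larger by 0.44 (edgeR adjusted p = 0.00103). The 12 cis SSP libraries were at 25.2 to 33.8 CPM whatever the medium or drug, above every library of cis cells in complete medium. The log2 fold change of cis SSP against cis cells was 0.81, and 0.84 without libraries 25 and 32.

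**Figure D2:**
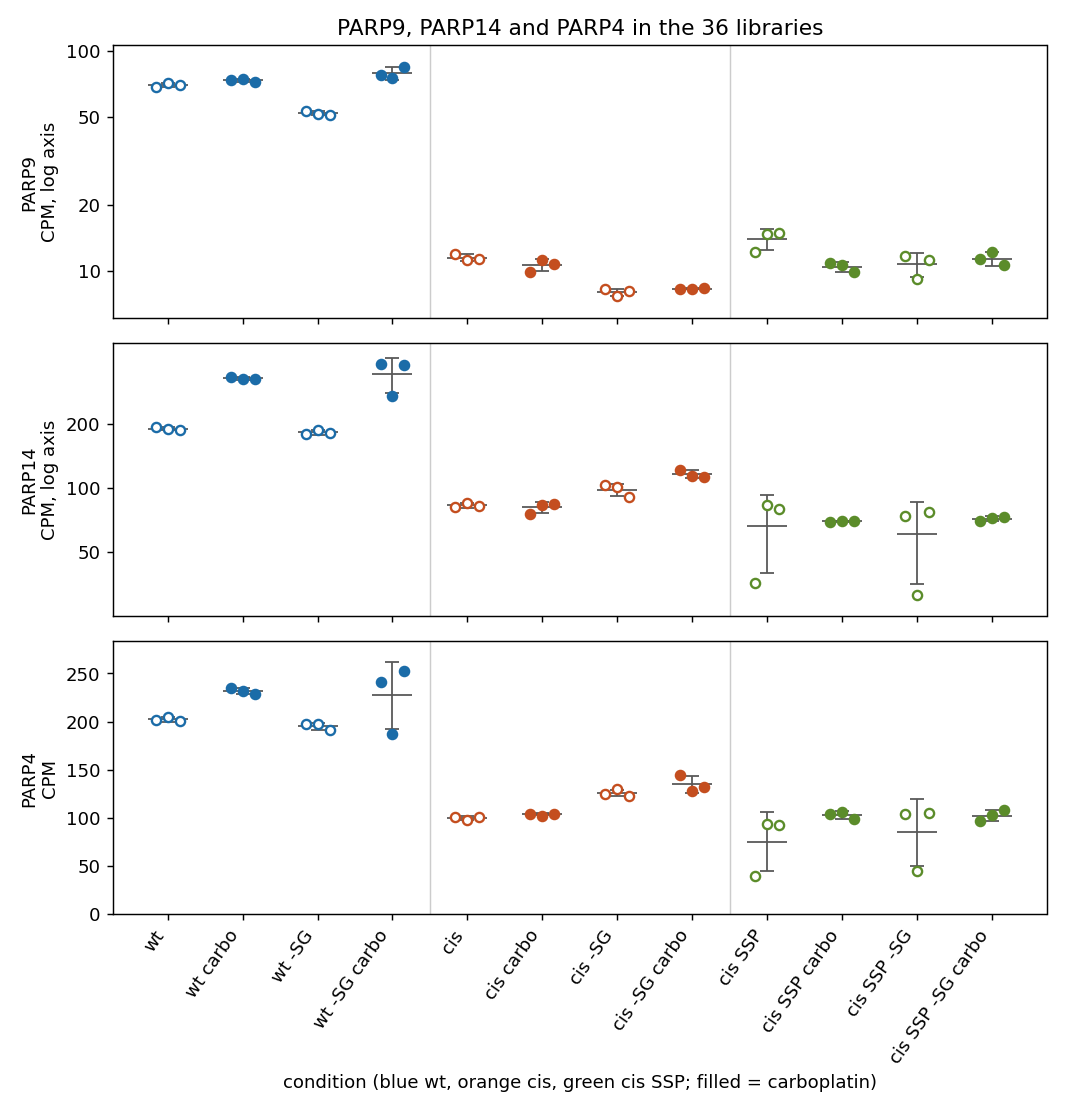
Levels of PARP9 and PARP14 (CPM, log axes) and of PARP4 (CPM, linear axis from 0) in the 12 conditions. Points are libraries and bars are the mean and SD of 3 libraries; every wt library lies above every cis and cis SSP library for all 3 genes, and 1 library each of cis SSP and cis SSP -SG lies low for PARP14 and PARP4.

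PARP9 (ENSG00000138496, chr3:122246771-122283424, minus strand), which carries macrodomains that read ADP-ribose and pairs with DTX3L, differed most between wt and cis cells among the members. It was at 68.6, 71.5 and 70.0 CPM in wt cells and at 11.9, 11.1 and 11.3 CPM in cis cells, 6.26-fold lower (log2 -2.65, standard error 0.0566, edgeR adjusted p = 5.87e-37). All 12 wt libraries, at 51.2 to 84.6 CPM, lay above all 24 cis and cis SSP libraries, at 7.66 to 14.8 CPM. Carboplatin hardly moved PARP9 in wt cells, at 73.8, 74.3 and 71.9 CPM (log2 0.08, edgeR adjusted p = 0.0275), a call that was lost with DESeq2 (adjusted p = 0.242). Without serine and glycine it fell in wt cells to 53.3, 51.8 and 51.2 CPM (log2 -0.41, edgeR adjusted p = 2.8e-08), and carboplatin then brought it to 77.2, 74.9 and 84.6 CPM (log2 0.63, standard error 0.0619, edgeR adjusted p = 1.38e-05). The response of wt cells to carboplatin was larger without serine and glycine by 0.54 (standard error 0.0681, edgeR adjusted p = 2.73e-05). Without library 11 the log2 fold change with carboplatin in wt -SG cells was 0.66, and the difference between responses was 0.58. In cis cells deprivation lowered PARP9 to 8.24, 7.66 and 8.09 CPM (log2 -0.49, edgeR adjusted p = 1.1e-05).

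DTX3L, which overlaps PARP9 head to head, was at 105 ± 3.14 CPM in wt cells and 34.8 ± 0.469 CPM in cis cells (SD, n = 3 libraries each), a log2 fold change of -1.63 (edgeR adjusted p = 7.13e-34). Over the 12 conditions the mean log2 levels of PARP9 and DTX3L had a Pearson r of 0.985, given as a description, since the 12 points come from 3 kinds of cells. The strand setting of the counting is not given in the sources used here, so reads over the stretch that both genes share cannot be told apart.

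PARP14 (ENSG00000173193, chr3:122399686-122449687, plus strand), a macrodomain-bearing mono-ADP-ribosyltransferase whose gene lies near PARP9, was lower in cis cells and rose with carboplatin in wt cells. It was at 193, 190 and 188 CPM in wt cells and at 81.4, 85.3 and 81.9 CPM in cis cells (log2 -1.23, standard error 0.0311, edgeR adjusted p = 4.71e-34). In wt carbo cells it reached 334, 326 and 325 CPM (log2 0.81, standard error 0.0223, edgeR adjusted p = 1.33e-169), and the interaction with cell line was -0.81 (edgeR adjusted p = 2.07e-23), with cis carbo cells at 75.8, 83.3 and 84.2 CPM. In wt -SG carbo cells it was at 383, 270 and 381 CPM, with the low value in library 11 (log2 0.94 against wt -SG, and 1.09 without library 11). Carboplatin raised PARP14 in cis cells that lacked serine and glycine, from 103, 101 and 90.9 to 122, 113 and 113 CPM (log2 0.33, standard error 0.0447, edgeR adjusted p = 0.000209), and this response was larger than in complete medium by 0.34 (edgeR adjusted p = 0.000609). PARP14 was at 35.7, 83.1 and 80.1 CPM in cis SSP cells and at 73.5, 31.4 and 77.0 CPM in cis SSP -SG cells, with libraries 25 and 32 as the low ones.

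PARP4 (ENSG00000102699, chr13:24995069-25086916, minus strand), the vault member, was again lower in cis cells, but moved little with carboplatin. It was at 202, 205 and 200 CPM in wt cells and at 100.4, 97.1 and 101 CPM in cis cells (log2 -1.06, standard error 0.0294, edgeR adjusted p = 2.09e-32). With carboplatin wt cells were at 235, 232 and 228 CPM, above every untreated library (log2 0.22, edgeR adjusted p = 7.9e-19). Deprivation raised PARP4 in cis cells to 125, 129 and 122 CPM (log2 0.36, edgeR adjusted p = 6.63e-13) and left wt -SG cells at 197, 197 and 191 CPM, which was not called. The responses to deprivation differed by 0.42 (edgeR adjusted p = 9.28e-11). Carboplatin without serine and glycine gave 241, 187 and 253 CPM in wt cells, with library 11 as the low one (log2 0.25, edgeR adjusted p = 0.0513, and 0.37 with an adjusted p of 4.78e-08 by edgeR without library 11). In cis SSP cells PARP4 was at 39.7, 93.0 and 91.9 CPM and in cis SSP -SG cells at 104, 44.7 and 105 CPM, and the low values are again those of libraries 25 and 32.

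PARP10 (ENSG00000178685, chromosome 8, minus strand), a mono-ADP-ribosyltransferase, was lowly expressed and lower in cis cells. It was at 5.31, 6.10 and 5.04 CPM in wt cells and at 1.78, 1.95 and 2.26 CPM in cis cells (log2 -1.48, standard error 0.16, edgeR adjusted p = 2.33e-11), with 27 to 110 counts per library. The 12 cis SSP libraries were at 0.714 to 2.33 CPM. PARP10 overlaps GRINA on the other strand, whose mean count was 1270% of that of PARP10, so its counts are less certain.

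**Figure D3:**
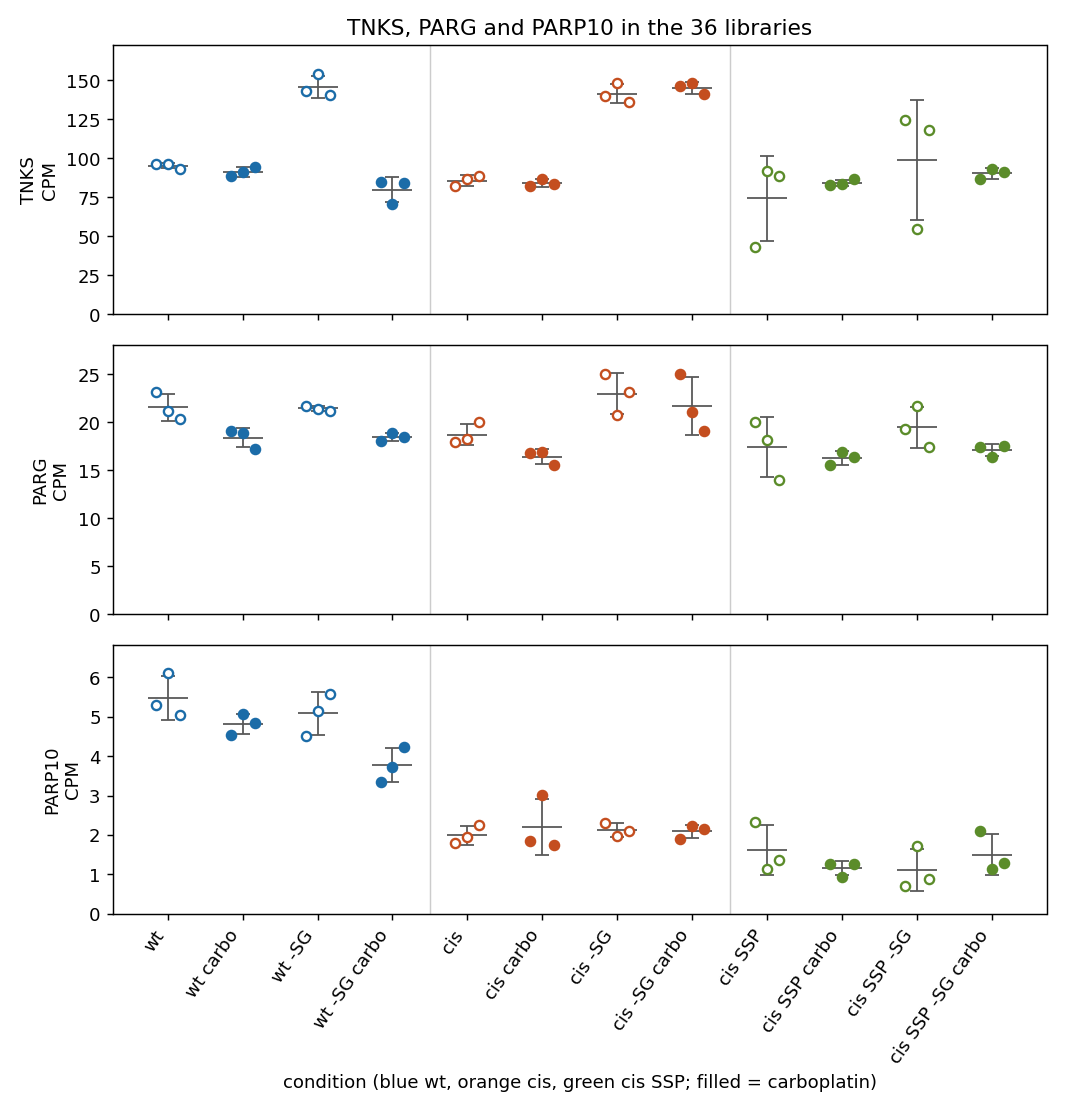
Levels of TNKS, PARG and PARP10 (CPM, linear axes from 0) in the 12 conditions. Points are libraries and bars are the mean and SD of 3 libraries; TNKS sits at 141 to 154 CPM in wt -SG and at 136 to 148 in cis -SG cells, against 93.2 to 96.2 and 82.2 to 88.6 in complete medium.

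TNKS (ENSG00000173273, chromosome 8, plus strand) was the member that rose most without serine and glycine in wt cells. It was at 96.2, 96.2 and 93.2 CPM in wt cells and at 143, 154 and 141 CPM in wt -SG cells (log2 0.63, standard error 0.0354, edgeR adjusted p = 1.33e-11). In cis cells it was at 82.2, 86.5 and 88.6 CPM and at 140, 148 and 136 CPM without serine and glycine (log2 0.75, standard error 0.0364, edgeR adjusted p = 4.24e-23). With carboplatin in complete medium wt cells were at 88.3, 91.0 and 94.4 CPM, which was not called (log2 -0.05, edgeR adjusted p = 0.191), but in wt -SG cells the drug brought TNKS to 84.5, 70.6 and 84.2 CPM, below every library of wt cells in complete medium (log2 -0.84, standard error 0.0793, edgeR adjusted p = 1.03e-05). The difference between both carboplatin responses was -0.80 (standard error 0.0859, edgeR adjusted p = 5.57e-06). In cis -SG cells TNKS was at 146, 148 and 141 CPM with carboplatin, so that the deprived libraries with and without the drug overlapped (log2 0.13, edgeR adjusted p = 0.0468). This call was lost with DESeq2 (adjusted p = 0.162). Without libraries 23 and 24, which leaves 1 library of cis -SG carbo, the log2 fold change was 0.07. TNKS was at 43.0, 91.7 and 88.7 CPM in cis SSP cells and at 124, 54.6 and 118 CPM in cis SSP -SG cells, where library 25 and library 32 were low as for PARP4 and PARP14.

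PARG (ENSG00000227345, chr10:51026325-51130715, minus strand), the enzyme that removes the chains, varied least among the members with a mean of at least 1 CPM, with a ratio of 1.41 between its highest condition, cis -SG, and its lowest, cis SSP carbo. It was at 23.1, 21.2 and 20.4 CPM in wt cells and at 17.9, 18.2 and 20.02 CPM in cis cells, with no overlap (log2 -0.23, edgeR adjusted p = 0.00238). Carboplatin in wt cells gave 19.1, 18.9 and 17.2 CPM (log2 -0.21, edgeR adjusted p = 0.00234), a call that was lost with DESeq2 (adjusted p = 0.0513). In cis -SG cells PARG was at 25.05, 20.8 and 23.2 CPM, above every cis library in complete medium (log2 0.32, edgeR adjusted p = 0.000109), and the response of cis cells to deprivation exceeded that of wt cells by 0.33 (edgeR adjusted p = 0.00495). The pseudogene PARGP1 had 1.24% of the counts of PARG.

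**Figure D4:**
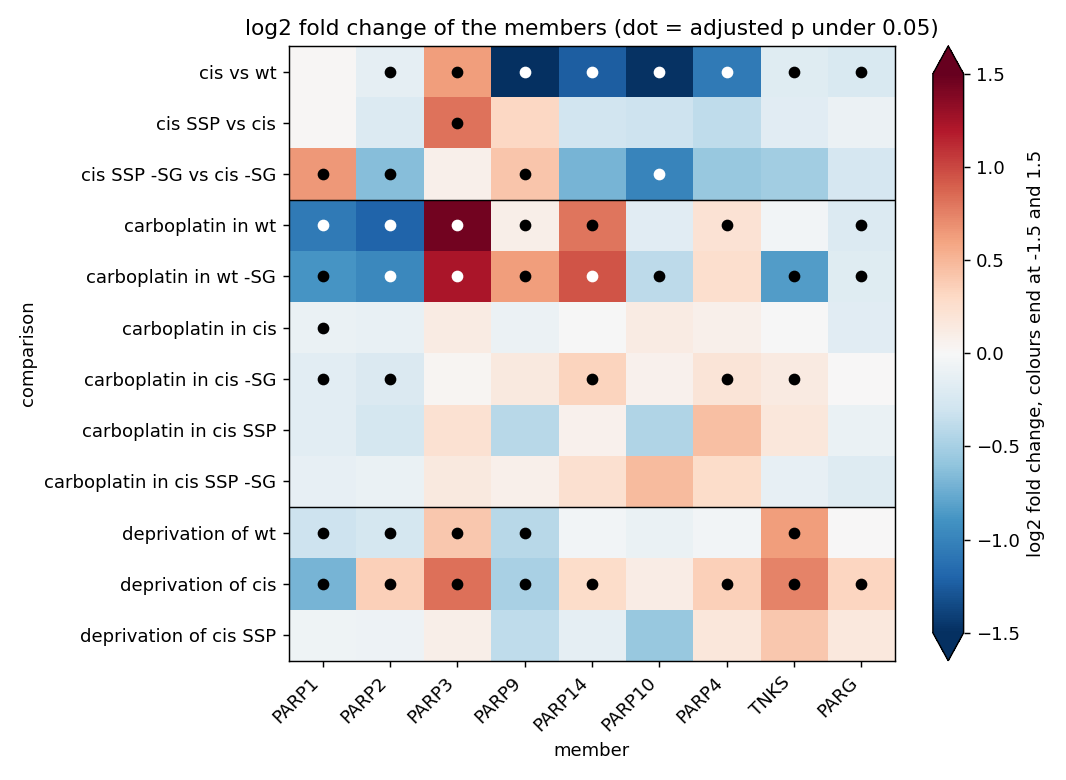
Log2 fold changes (colour, ends at -1.5 and 1.5) of 9 members (columns) in 12 comparisons (rows), with a dot where the adjusted p was under 0.05. Reds are higher in the first-named, treated or deprived cells. Carboplatin shows 7 dots in wt cells (77.8% of all genes called) and 1 in cis cells (20.1% of all genes called).

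Of the 9 members tested between cis and wt cells, 8 were called, 1 higher (PARP3) and 7 lower, and PARP1 was the one not called. Of all genes 78.5% were called in this comparison, so the share of members called in either direction was near the background. By direction, 39.4% of all genes were called higher and 39.1% lower. PARP4, PARP9, PARP10 and PARP14 changed by at least 2-fold, against 24.6% of all genes. The median log2 fold change of the members was -0.23, against -0.0041 over all genes. The 3 fibroblast markers summed to 162 to 168 CPM in wt and 4.85 to 5.79 CPM in cis cells. Nearly all of the wt sum was COL1A1, at a mean of 162.9 CPM, against 4.07 CPM in cis cells (log2 -5.35). LUM was also called lower (log2 -0.73), from 1.02 to 0.624 CPM, whereas DCN went from 0.492 to 0.637 CPM. The 5 epithelial markers summed to 1.66 to 2.11 CPM in wt and 16.5 to 19.7 CPM in cis cells, of which KRT18 was at 4.76. EPCAM went the other way and was called lower (log2 -2.27), and KRT8 was not called. None of these markers was at 0 in all libraries of either condition, and their part in the differences of the members was not tested. In bulk RNA, fewer cells of a kind and less RNA per cell cannot be told apart.

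Carboplatin called 7 of 9 members in wt cells (background 77.8%), with PARP3, PARP4, PARP9 and PARP14 higher and PARP1, PARP2 and PARG lower. PARP1, PARP2 and PARP3 changed by at least 2-fold, against 19.1% of all genes. The summed fibroblast markers were at 852 to 859 CPM and the epithelial markers at 16.1 to 17.1 CPM in wt carbo cells, above all untreated wt libraries. Of the fibroblast markers COL1A1 rose (log2 2.41), whereas LUM was called lower (log2 -0.75) and DCN went from 0.492 to 0.398 CPM. The part of the markers in the changes of the members was not tested. In cis cells PARP1 alone was called (background 20.1%), and the other 8 members had log2 fold changes between -0.17 (PARG) and 0.13 (PARP3). The response to carboplatin differed between cis and wt cells for 5 of 9 members, PARP1, PARP2, PARP3, PARP4 and PARP14 (background 57.6%). The difference between responses uses the same libraries as the comparisons within wt and within cis cells, so their values are set side by side and not correlated.

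Without serine and glycine, carboplatin called 8 of 9 members in wt cells (background 68.9%), with PARP3, PARP9 and PARP14 higher and PARP1, PARP2, PARP10, TNKS and PARG lower, and PARP3 alone reached 2-fold (22.1% of all genes). Without library 11 all 9 were called (background 73.3%), and PARP2 at -1.07 and PARP14 at 1.09 reached 2-fold beside PARP3 at 1.19. DESeq2 called 6 members and lost PARP10 (adjusted p = 0.136) and PARG (adjusted p = 0.158), which were also lost in 3 and 5 of the 6 fits with 1 library left out. In cis cells without serine and glycine carboplatin called 5 (background 22.5%), PARP4, PARP14 and TNKS higher and PARP1 and PARP2 lower, and DESeq2 called 4. Leaving out libraries 23 and 24 leaves 1 library of cis -SG carbo. The log2 fold changes were then 0.22 for PARP4, 0.32 for PARP14, 0.07 for TNKS, -0.09 for PARP1 and -0.19 for PARP2. The carboplatin response differed between deprived and complete medium for 3 members in wt cells, PARP1, PARP9 and TNKS (background 27.7%), and for 6 without library 11 (34.2%). In cis cells it differed for PARP14 (background 12.1%).

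Deprivation called 5 of 9 members in wt cells (background 49.2%), PARP3 and TNKS higher and PARP1, PARP2 and PARP9 lower. In cis cells it called 8 (background 75%), with PARP2, PARP3, PARP4, PARP14, TNKS and PARG higher and PARP1 and PARP9 lower, and no member reached 2-fold, against 15.6% of all genes. The summed epithelial markers were at 43.5 to 47.3 CPM in cis -SG cells, above the cis libraries in complete medium, and their part here was not tested. The responses to deprivation differed between cis and wt cells for 7 members (background 54%), all but PARP9 and PARP10. The difference was negative for PARP1 and positive for PARP2, PARP3, PARP4, PARP14, TNKS and PARG.

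**Figure D5:**
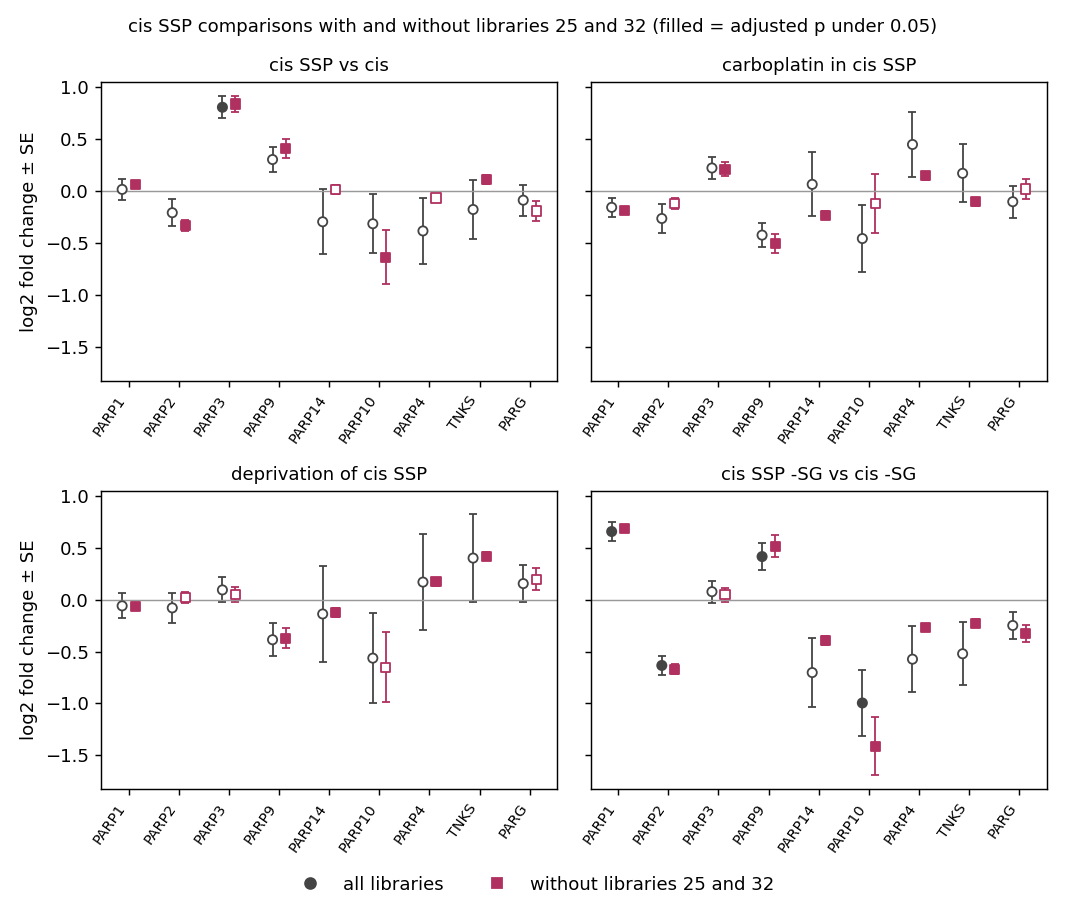
Log2 fold changes with their standard errors of 9 members in 4 comparisons of cis SSP cells, from all libraries (circles) and without libraries 25 and 32 (squares), filled where the adjusted p was under 0.05. Most standard errors shrink without both libraries, and the value of TNKS in cis SSP against cis cells goes from -0.17 to 0.11.

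In cis SSP cells few members were called while libraries 25 and 32 were in the fit. PARP3 alone was called between cis SSP and cis cells (background 29.1%), against 6 members without library 25 (background 65.4%). These were PARP1 (log2 0.07), PARP3, PARP9 and TNKS, higher in cis SSP cells, and PARP2 (log2 -0.33) and PARP10 (log2 -0.63), lower, while PARG was at -0.19. TNKS went from -0.17 to 0.11 (edgeR adjusted p = 0.0214), PARP4 from -0.38 to -0.06 and PARP14 from -0.29 to 0.02, the last 2 not called either way. Without serine and glycine, 4 members differed between cis SSP and cis cells (background 44.8%), PARP1 and PARP9 higher and PARP2 and PARP10 lower, and 8 without library 32 (background 75.5%), when PARP4 (log2 -0.27), PARP14 (log2 -0.39), TNKS (log2 -0.23) and PARG (log2 -0.33) were lower too and PARP3 was at 0.05. The calls of PARP9 (log2 0.41) and PARP10 (log2 -0.995) were each lost in 5 of 6 fits that left out 1 library, all except the one without library 32. The 3 fibroblast markers summed to 41.3 to 50.8 CPM in cis SSP cells, against 4.85 to 5.79 CPM in cis cells, of which DCN was at 5.25 on the log2 scale, and their part in these differences was not tested.

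Carboplatin called 0 of 9 members by edgeR in cis SSP cells (background 2.72%), with 1 at an unadjusted p under 0.05 and 0 by DESeq2. Without library 25 it called 6 (background 41.2%), among them PARP9 at -0.50 (edgeR adjusted p = 5.03e-05), PARP14 at -0.23, PARP1 at -0.19 and TNKS at -0.10, with PARP3 (0.21) and PARP4 (0.15) higher, and PARP2, PARP10 and PARG not called, while all libraries gave PARP14 at 0.07 and TNKS at 0.17. In cis SSP -SG cells carboplatin also called 0 by edgeR (background 1.47%), with 0 at an unadjusted p under 0.05 and 0 by DESeq2, and 4 without library 32 (background 41.1%), with TNKS at -0.40 (edgeR adjusted p = 1.49e-07), PARP1 at -0.13, PARP3 at 0.19 and PARP10 at 0.92. Deprivation of cis SSP cells called 0 members by edgeR (background 0.0218%), with 0 at an unadjusted p under 0.05 and 0 by DESeq2. Without both libraries 5 were called (background 35.9%), and TNKS rose by 0.42 (edgeR adjusted p = 3.81e-09). PARP4 was also higher (log2 0.17), PARP1 (log2 -0.06), PARP9 (log2 -0.37) and PARP14 (log2 -0.12) were lower, and PARP2, PARP3, PARP10 and PARG were not called. The difference between the carboplatin responses of cis SSP and cis cells was called for 0 members by edgeR (background 0.506%), with 1 at an unadjusted p under 0.05 and 0 by DESeq2, and for 2 without library 25, PARP9 and PARP14 (background 14.3%).

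The levels of several members moved together over the conditions. Over the 12 condition means of log2 CPM, PARP14 had a Pearson r of 0.967 with PARP4 and of 0.893 with PARP9, and PARP4 had an r of 0.862 with PARP9. TNKS and PARG had an r of 0.821, and PARP1 and PARP14 one of -0.738. These are descriptions over 12 conditions of 3 cell lines, with libraries 25 and 32 included. Among 10753 genes with a mean of at least 5 CPM, the gene most like PARP1 was TACC3 (r = 0.997), followed by KIF20A (0.993) and PLK1 (0.991). The most like PARP3 was EEIG1 (0.961), PARP4 ERRFI1 (0.993), PARP9 IFITM1 (0.989), PARP14 SP140L (0.994), TNKS ATE1 (0.971) and PARG CLIC4 (0.927).

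Of 8 other family members, 7 were tested between cis and wt cells, with 2 higher and 4 lower in cis cells, against 78.5% of all genes called in either direction. TNKS2, the second tankyrase, was at 66.9 against 167 CPM (log2 -1.35), whereas TNKS differed by -0.18. With carboplatin in wt cells 3 of 7 rose and 3 fell (77.8% of all genes called), with PARP16, which acts at the endoplasmic reticulum, at -1.62. In cis cells without serine and glycine PARP6 rose by 1.33.

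Among 10 partners, readers and erasers of ADP-ribose, 8 were tested between cis and wt cells, with 2 higher and 6 lower, against 78.5% of all genes called in either direction. APLF, a repair factor that binds ADP-ribose chains, had 35, 40 and 35 counts in wt libraries and 1, 3 and 1 counts in cis libraries, and was called lower (edgeR adjusted p = 3.55e-13). DTX3L, given above, and OARD1, which removes ADP-ribose from proteins (log2 -0.80), came next. Carboplatin in wt cells called 3 higher and 4 lower of 8 (77.8% of all genes called), with HPF1, the cofactor that directs PARP1 and PARP2 to serine residues, falling from 25.9 to 9.49 CPM (log2 -1.43, edgeR adjusted p = 3.86e-67). MACROD1 was at -1.55 and OARD1 at -1.17 in the same cells, and the interaction with cell line was 1.26 for HPF1 (edgeR adjusted p = 6.79e-16).

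All 9 genes of single-strand break repair were tested, the pathway that PARP1 serves. Carboplatin in wt cells called 2 higher and 6 lower (77.8% of all genes called), with a median of -0.62 against -0.00074 over all genes, and the largest changes were in TDP1 (-1.02), FEN1 (-0.83) and XRCC1 (-0.78). In cis cells carboplatin called 1 higher and 2 lower (20.1% of all genes called). Deprivation of cis cells called all 9, 2 higher and 7 lower (75% of all genes called, 37.4% lower), with FEN1 at -0.88, LIG1 at -0.74 and PCNA at -0.63. Between cis and wt cells 3 were higher and 2 lower (78.5% of all genes called), with PCNA at 0.76 and POLB at 0.60.

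Of 20 interferon-stimulated genes, the list to which PARP9 and PARP14 are related as background, 18 were tested between cis and wt cells, and 17 were lower in cis cells and 0 higher, against 39.1% of all genes called lower. Their median was -1.36, with OAS2 at -4.78 and UBA7 at -3.70, and SAMD9L was at 0 in all 3 cis libraries. With carboplatin 12 of 19 rose and 3 fell in wt cells, against 38.9% of all genes higher and 39.0% lower, with IFIT3 going from 62.0 to 258 CPM (log2 2.08) and IRF1 from 81.2 to 250 CPM (log2 1.64). In cis -SG cells carboplatin called 8 higher and 1 lower of 16, against 10.9% and 11.6% of all genes. Between cis SSP and cis cells 4 of 17 were higher and 4 lower, against 15.8% and 13.3% of all genes, with a median of 0.057. Among the lower was IFIT1, at 15.2 CPM in cis SSP against 219 CPM in cis cells (log2 -3.83, edgeR adjusted p = 1.38e-05). PARP9 was at 13.9 against 11.5 CPM in the same comparison, which was not called with all libraries. Without library 25 PARP9 was higher by 0.41 (edgeR adjusted p = 0.000187).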

How the data were processed

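RNA-seq of 36 libraries of A2780 cells was analysed, grouped by the labels of each sample. The authors deposited raw counts per gene, made from reads aligned with STAR to GRCh37.p13 and counted with HTSeq on GENCODE annotation. The strand setting is not given in the sources used here. The deposited table had 3 rows that name no gene. They were left out, and reads on no feature were 4.21% to 17.9% of a library. Each column was mapped by its library number, and 0 columns were left unused. Symbols and positions came from GENCODE lifted to GRCh37, and promoters from RefSeq.

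Counts were tested with edgeR 4.0.16 in R 4.3.3 (TMM, filterByExpr, glmQLFit with robust estimation, glmQLFTest) in the libraries of the conditions compared, with Benjamini-Hochberg adjustment over all genes tested, and an adjusted p under 0.05 was called. Differences between responses were interaction terms. The standard error was the log2 fold change divided by the square root of F. The mean chi-square of counts between libraries of a condition was 1.18 to 111 in 36 pairs, so none were merged. In simulated counts for cis against wt cells, with 14270 genes, 95 of 100 genes changed by 0.5 and 100 of 100 changed by 1 on the log2 scale were recovered. For cis SSP against cis cells, with 13701 genes, 9 of 100 and 76 of 100 were recovered. These simulations gave all genes a common spread and changed only genes with higher counts. They held no shift of single libraries by transcript length, so they do not measure the recovery of the members themselves.

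The 10 members and the lists were chosen with earlier results of these data known. The rule named all members in every comparison, and some that were not called stand only in the counts. It named of each further list at most 3 called genes with the largest change per comparison, besides genes overlapping a member. Alternatives were DESeq2 1.42.0 (the tool named in the study's methods), other scalings and filters, one fit over all libraries, a 2-fold minimum on calls (log2 of 1), and libraries left out. Python 3.11.15, pandas 2.3.3 and matplotlib 3.10.9 were used for tables and plots. Some of the correlations of members with other genes are not reported here.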

Additional observations from a re-analysis of the deposited data

Results flagged for a closer look

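The responses of cis and wt cells to carboplatin differed for 5 members, by 0.96 for PARP1, 1.10 for PARP2, -1.31 for PARP3, -0.81 for PARP14 and -0.13 for PARP4 on the log2 scale (cis minus wt, interaction term). The responses to serine and glycine deprivation differed for 7 members, by -0.36 for PARP1, 0.63 for PARP2, 0.44 for PARP3, 0.42 for PARP4, 0.33 for PARP14, 0.13 for TNKS and 0.33 for PARG. TNKS lost its call with DESeq2 and in 8 of the fits with 1 library left out. In wt cells the response to carboplatin without serine and glycine differed from that in complete medium by 0.16 for PARP1, 0.54 for PARP9 and -0.80 for TNKS, and the call of PARP1 was lost in 11 of 12 fits with 1 library left out, all except the one without library 11. In cis cells this difference was 0.34 for PARP14. Single libraries were not tested as outliers of their condition.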

How the results depend on the processing

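Of 63 called log2 fold changes of members, 37 kept their call under every alternative except the 2-fold minimum, which 10 of the 63 reached, and 0 changed sign. Of the 863 alternative values of these, 88 lost the call, 23 of them in one fit over the 36 libraries. That fit called 5 members between cis and wt cells, 2 between cis SSP and cis cells, 7 between them without serine and glycine, and, with carboplatin, 4 in wt, 0 in cis, 4 in cis SSP, 1 in cis -SG and 1 in cis SSP -SG cells. It called 1 for deprivation of cis SSP cells, 3 for the difference in deprivation responses, and 1 in wt and 0 in cis cells for the carboplatin response with against without deprivation. A 2-fold minimum (log2 of 1) left 4 members between cis and wt cells, 0 in both cis SSP against cis comparisons, 3, 0, 1 and 0 with carboplatin in wt, cis, wt -SG and cis -SG cells, 0 for deprivation of wt and of cis cells, 2 for the difference in carboplatin responses of cis and wt cells, 0 for that in deprivation responses and 0 for both differences by medium. Without libraries 25 and 32 there were 6 members in cis SSP against cis cells (background 65.4%). In the same without serine and glycine there were 8 (background 75.5%). With carboplatin there were 6 in cis SSP (background 41.2%) and 4 in cis SSP -SG cells (background 41.1%). Deprivation of cis SSP cells gave 5 (background 35.9%), and the difference in carboplatin responses gave 2 (background 14.3%). Leaving out libraries 23 and 24 left 1 library of cis -SG carbo, so members called are not counted for it. Total counts in place of TMM gave 2 for the carboplatin response by medium in cis cells. With 1 library left out in turn, the members called ranged from 1 to 6 in cis SSP against cis cells, from 2 to 8 in the same without serine and glycine, from 0 to 6 and from 0 to 4 with carboplatin in cis SSP and cis SSP -SG cells, from 0 to 2 for the difference in carboplatin responses of cis SSP and cis cells, and from 2 to 6 in wt and 1 to 2 in cis cells for the response by medium. The high ends came without libraries 25, 32 and 11, and in the last case without library 22. The share of all genes called moved with the fits too, in cis SSP against cis cells from 29.1% to 65.4% without library 25. Where no share stands beside a count here, the count describes the fit and is no result about the members alone.

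PARP1 between cis and wt cells, not called in any of these fits, was at -0.0024 with DESeq2's size factors, at -0.0167 with at least 10 counts in every library, and between -0.0054 and 0.0231 with 1 library left out. Without libraries 25 and 32, PARP14 went to 0.0169 and TNKS to 0.112 in cis SSP against cis cells, and PARP14 to -0.23 and TNKS to -0.10 with carboplatin in cis SSP cells. With 1 library left out in turn, these values ran from -0.50 to 0.0169 and from -0.362 to 0.112, and from -0.23 to 0.26 and from -0.10 to 0.35. With total counts PARP14 was there at -0.0055. Except for libraries left out, the cause was not tested. No paired analysis was possible because the labels carry no replicate numbers. The largest shift of the median of all genes by a scaling was 0.0733 on the log2 scale. Precision was limited by the 0 to 5 counts of PARP12, and by libraries 25 and 32 in cis SSP cells.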
